A study of Homo sapiens with 12 samples.

Results

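The microRNAs (miRNAs) described here are the 5p strands of the human series miR-6715 to miR-6895, a block of names given to hairpins that mostly lie in introns of protein-coding genes. Members were chosen by name alone, as every entry from miR-6715 to miR-6895 that ends in 5p and is listed in all 12 libraries, which gave 175 of the 2656 mature miRNA names. The material was AC16, an established line made by fusing human ventricular cardiomyocytes with transformed fibroblasts, and the exosomes its cultures released. Each compartment was sampled under Con, the control, and under Ang, a treatment that the file headers write as AngII, which makes 4 groups of 3 libraries each. The labels used here state neither a dose nor a duration for Ang. The stated aim was to find miRNAs that change in the exosomes of hypertrophic cardiomyocytes. Nothing in the labels says that the 3 libraries of a group came from separate cultures, so the p-values measure the spread between these libraries, which may be technical.

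A mirtron is a miRNA whose hairpin is released by the spliceosome as an excised or trimmed intron, in place of cleavage by Drosha, and is then cut by Dicer into a 5p and a 3p strand. In a tailed mirtron only 1 end of the hairpin coincides with a splice site, and the 5′ or 3′ tail is trimmed away. Because the 3′ end of a mammalian intron is a pyrimidine-rich tract ending in AG, the 3p strand of such hairpins is rich in C and U and the opposing 5p strand is rich in G. A mature miRNA acts through its seed, bases 2 to 8, which pairs with target mRNAs, and short G-containing motifs such as GGAG have been described as signals bound by RNA-binding proteins that sort miRNAs into exosomes.

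RefSeq (GRCh38.p14) held the mature sequence of 150 of the 175 members, and those that the results turn on are listed here with the seed in capitals. The members with the highest levels in cells or exosomes were
miR-6793-5p: uGUGGGUUcuggguugggguga
miR-6724-5p: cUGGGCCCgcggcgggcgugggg
miR-6789-5p: gUAGGGGCgucccgggcgcgcggg
miR-6727-5p: cUCGGGGCaggcggcugggagcg
miR-6729-5p: uGGGCGAGggcggcugagcggc
miR-6743-5p: aAGGGGCAgggacggguggccc
miR-6854-5p: aAGCUCAGguuugagaacugcuga
Members that changed with Ang, in exosomes or in cells, were
miR-6824-5p: gUAGGGGAgguugggccaggga
miR-6755-5p: uAGGGUAGacacugacaacguu
miR-6721-5p: uGGGCAGGggcuuauuguaggag
miR-6752-5p: gGGGGGUGuggagccagggggc
miR-6786-5p: gCGGUGGGgccggaggggcgu
miR-6715b-5p: aCAGGCACgacugguuuggca
miR-6774-5p: aCUUGGGCaggagggacccuguaug
miR-6858-5p: gUGAGGAGgggcuggcagggac
miR-6796-5p: uUGUGGGGuuggagagcuggcug
miR-6861-5p: aCUGGGUAgguggggcuccagg
Members far apart between exosomes and cells, with a pair that shares a seed (miR-6737-5p and miR-6819-5p), were
miR-6749-5p: uCGGGCCUgggguugggggagc
miR-6737-5p: uUGGGGUGgucggcccuggag
miR-6819-5p: uUGGGGUGgagggccaaggagc
miR-6894-5p: aGGAGGAUggagagcugggccaga
miR-6759-5p: uUGUGGGUgggcagaagucugu
miR-6857-5p: uUGGGGAUugggucaggccagu
miR-6776-5p: uCUGGGUGcaguggggguu
Named in the results without a sequence in that table are miR-6893-5p, miR-6756-5p, miR-6848-5p, miR-6879-5p, miR-6866-5p, miR-6735-5p and miR-6811-5p.

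The sequences shared a high content of G that the choice by name did not use. The median G share of the 150 members was 50%, with a range of 25% to 68.2%, against 27.3% over all 2370 human mature miRNAs in the table and 27.3% over the 659 other 5p names. The 153 3p partners with a sequence, the strands from the opposite side of the same hairpins, had a median G share of 14.3%. The run GGGG was present in 71 members (47.3%) and in 11.7% of all mature miRNAs, and GGAG, which can overlap a run of G, was present in 68 members (45.3%) and in 15.7% of all. Among the 3p partners GGAG was present in 0 of 153, and CCCU in 49.7% against 6.67% of the members. All motifs were searched on the mature strand as written.

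The 150 members held 139 distinct seeds, and 10 seeds were shared by 21 of them. UGGGGUG was the seed of miR-6737-5p, miR-6812-5p and miR-6819-5p, CGGGGAG of miR-6777-5p and miR-6889-5p, and UGGGCCC of miR-6724-5p and miR-6773-5p. The seed of miR-6838-5p, AGCAGCA, was also that of 6 mature miRNAs of the miR-15 and miR-16 family. For the 150 members with a sequence, none of the 2370 mature sequences in the table contained bases 2 to 17 of a member under another name. The other 25 members were not checked in this way.

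Hairpin positions were compared with GENCODE release 29 on GRCh38. Any overlap of a hairpin with an exon was counted, also at its edge. Of the 138 members with a single hairpin, 101 lay in introns alone. Another 31 overlapped an exon in some transcript and lay within an intron in another. In 4 the hairpin overlapped an exon in every transcript that held it, and 2 lay in no gene on their strand. A protein-coding host gene was found for 135 of the 138. Of 127 hairpins whose 3p strand could be placed in an intron, the strand ended exactly at the intron's 3′ end in 97 and within 2 nucleotides of it in 110, or 86.6%. For other human hairpins placed the same way, the 3p strand ended within 2 nucleotides of an intron's 3′ end in 47 of 353, or 13.3%. At the opposite end, the 5p strand began within 2 nucleotides of the intron's start in 10 of 136, and both ends matched in 5. The block was therefore mostly of hairpins that end at a 3′ splice site and carry intron sequence on their 5′ side.

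Several hosts are well-known genes. The hairpin of miR-6793 lies at chr19:10828973-10829035 on the plus strand, in an intron of DNM2, which encodes the membrane-scission GTPase dynamin 2. The miR-6819 hairpin, at chr22:36286847-36286907 on the minus strand, is in an intron of MYH9, the gene of non-muscle myosin IIA heavy chain. The miR-6786 hairpin is at chr17:81693757-81693869 on the plus strand in an intron of HGS, whose product sorts cargo into the multivesicular bodies from which exosomes come. The miR-6824 hairpin lies at chr3:48633636-48633698 on the minus strand, in SLC26A6, an anion exchanger gene. Depending on the transcript it lies within an intron or overlaps an exon. The miR-6759 hairpin, at chr12:57748618-57748682 on the minus strand, is in an intron of CDK4, a cell-cycle kinase gene. The miR-6789 hairpin, at chr19:2235829-2235926 on the minus strand in PLEKHJ1, is 98 nucleotides long and overlaps exon sequence. Its 5p strand starts at the first base of a 94-nucleotide annotated intron and its 3p strand ends at the last.

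The libraries held 413513 to 528844 UMIs (unique molecular identifiers, each counting 1 captured molecule) in cells and 697049 to 1029883 in exosomes. Levels are given as CPM, counts per 1000000 UMIs of the library, and 3 counts correspond to 2.91 to 7.25 CPM. Pairs of libraries in a group differed beyond sampling (chi-square divided by its degrees of freedom 1.34 to 10.6), with exosomes Con replicate 1 farthest from its group. A list of 7 muscle miRNAs made up 0.034% to 0.038% of UMIs in cells Con, with all 7 at a count above 0. Their summed level was 344 to 376 CPM in cells Con and 285 to 326 CPM in cells Ang. In exosomes it was 73.8 to 90.6 CPM in Con and 57.4 to 71.4 CPM in Ang. The sum was lower with Ang in both, without overlap. Among single tested names, Ang and Con did not overlap in either direction in 22.4% in cells and 52.4% in exosomes. A list of 8 blood, liver and endothelial miRNAs summed to 2403 to 2653 CPM in cells Con, 2338 to 10989 CPM in cells Ang, where replicate 2 was the highest, 678 to 1855 CPM in exosomes Con and 426 to 860 CPM in exosomes Ang. The part of either list in the results was not tested. Cell RNA and exosome RNA were extracted with different kits, so differences between the compartments cannot be told apart from those between the kits.

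Nearly all members were detected, and a few carried most of the counts. Between 172 and 175 of the 175 members had a count in each cell library and 168 to 173 in each exosome library, and none was at 0 in all 3 libraries of a group. The median member stood at 28.4 CPM in the Con cells and 33.4 CPM in the Ang cells, against 27.9 and 30.9 CPM for the median of all names. In exosomes it stood at 19.0 CPM under Con and 14.1 CPM under Ang, against 7.95 and 6.32 CPM for all names. In cells the median member was thus close to the median name, and in exosomes it lay above it. At least 100 CPM was reached by 45 members in cells Con and 37 in exosomes Con, and at least 1000 CPM by 14 and 10. The 10 most abundant members held 73.7% ± 0.48 (SD, n = 3) of member UMIs in cells Con and 72.3% ± 0.36 (SD, n = 3) in exosomes Con.

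As a group the members made up 6.90% ± 0.090 (SD, n = 3) of the UMIs in cells Con and 6.83% ± 0.19 in cells Ang. They made up 4.18% ± 0.021 in exosomes Con and 4.21% ± 0.036 in exosomes Ang. The shares of exosomes and cells did not overlap in Con or in Ang, and the exact 2-sided permutation p was 0.1 for each, the smallest that 3 against 3 libraries allow. Ang and Con did not differ beyond the spread in exosomes (exact permutation p = 0.3) or in cells (exact permutation p = 0.8). The exosome share depended on a pair of very abundant miRNAs, miR-552-3p and miR-3972. With these left out of the library total, the members held 5.05% in exosomes Con and 5.93% in exosomes Ang, a difference of 0.885 percentage points (exact permutation p = 0.1), and 6.96% and 6.89% in cells Con and Ang.

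The order of the abundant members differed between compartments. In cells Con miR-6793-5p led, with 17618, 17544 and 17465 CPM, and was the 7th most abundant of all names. In exosomes Con it stood at 2526, 2649 and 2722 CPM and was only the 4th member. miR-6893-5p followed in cells Con with 14061, 14054 and 13515 CPM and led in exosomes Con with 8452, 8036 and 8068 CPM, where it ranked 21st of all names. These levels were far apart between compartments compared with the spread of 3 libraries.

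After these, the cells Con order was miR-6724-5p (mean 4783 CPM), miR-6854-5p (3085), miR-6819-5p (2874), miR-6789-5p (2732), miR-6836-5p (2046) and miR-6776-5p (1598). The ranges of miR-6819-5p (2719 to 3045 CPM) and miR-6789-5p (2587 to 2823 CPM) overlapped, so their order in cells Con was within the spread. In exosomes Con the order after miR-6893-5p was miR-6724-5p (5290 CPM), miR-6789-5p (3743), miR-6793-5p (2632), miR-6727-5p (2425), miR-6743-5p (2116), miR-6729-5p (1633) and miR-6797-5p (1621). The ranges of miR-6729-5p (1600 to 1659 CPM) and miR-6797-5p (1555 to 1682 CPM) overlapped there. Cells and exosomes shared 4 of their 8 most abundant members, namely miR-6724-5p, miR-6789-5p, miR-6793-5p and miR-6893-5p. Of these miR-6724-5p was not placed in an intron, as its 2 annotated hairpins on chromosome 21 lay in no gene on their strand. In the plot of levels in cells and exosomes, miR-6793-5p, miR-6854-5p, miR-6819-5p and miR-6836-5p lie below the diagonal and miR-6743-5p, miR-6797-5p and miR-6727-5p above it.

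**Figure D1:**
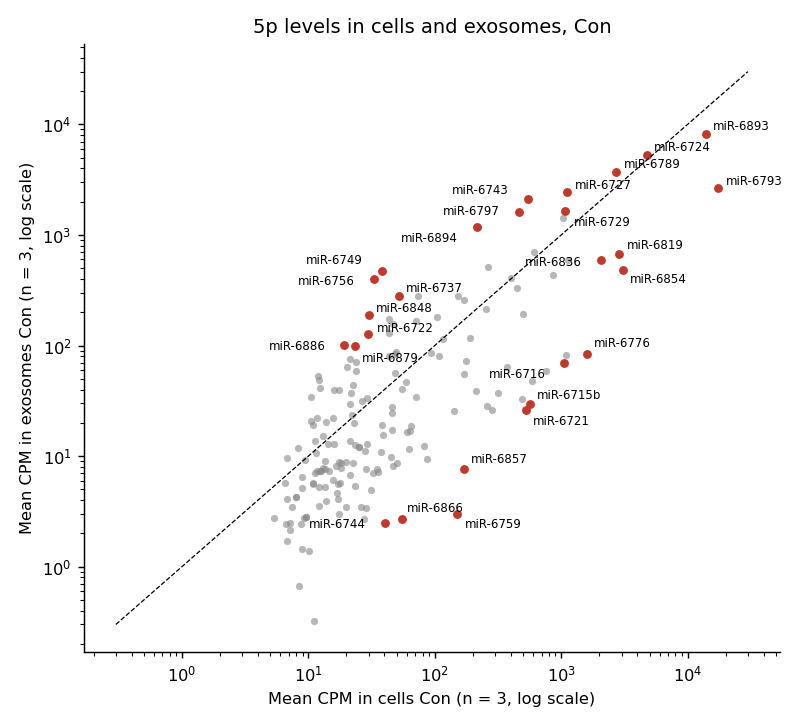
Mean CPM of the 175 members in exosomes Con (vertical) against cells Con (horizontal), both on log axes, 3 libraries each; each point is a member, red points are the most abundant members and those farthest apart between compartments, and the dashed line marks equal CPM. miR-6749-5p, miR-6756-5p and miR-6737-5p lie above the line, and miR-6759-5p, miR-6857-5p and miR-6776-5p far below it.

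Exosomes were compared with cells next, on a scale (TMM, edgeR's normalization) that sets most names to no change on balance. Relative to other miRNAs the members were shifted toward exosomes. In Con, 99 of the 126 tested members passed the threshold (edgeR quasi-likelihood, Benjamini-Hochberg adjusted p below 0.05), 68 higher and 31 lower in exosomes, against 83.3% of all 1710 tested names, 39.2% higher and 44.2% lower. The median log2 difference was 0.79 for the members and -0.27 for all names. In Ang, 98 of 122 passed, 65 higher and 33 lower, against 83.3% of 1627 names, 38.2% higher and 45.1% lower, with medians of 0.87 and -0.31. The libraries of the compartments did not overlap in 109 of the 126 members in Con, against 89.1% of names, and in 108 of the 122 in Ang, against 91%. Without a filter on low counts all 175 members were tested, and their median was 0.59 in Con against -0.49 for all 2655 names. The latter include names not listed in exosomes and taken as 0, which the choice of members left out.

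The zero point of this comparison is a matter of scaling. With library totals in place of TMM every log2 difference was lower by 1.52 in Con and by 1.90 in Ang at the median of all names, and the members' calls became 40 higher and 67 lower in Con and 36 and 69 in Ang. The distance between the members' median and that of all names was 1.05 in both scalings in Con and 1.18 in Ang. Of the called members 17 of 99 in Con and 21 of 98 in Ang changed sign, all of them higher in exosomes on the TMM scale. miR-6893-5p was among them, at 0.75 by TMM and -0.77 by library totals. All the members named below as higher or lower kept their sign in both scalings.

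The members most enriched in exosomes were led by miR-6749-5p and miR-6756-5p. miR-6749-5p, from an intron of the autophagy gene ATG2A, had 60.5, 23.3 and 30.7 CPM in cells Con and 490, 499 and 413 CPM in exosomes Con. All exosome libraries were far above all cell libraries, and the log2 difference was 5.10 ± 0.23 (SE; adjusted p = 4.49e-09). miR-6756-5p had 39.7, 31.0 and 28.3 CPM in cells Con and 339, 429 and 425 CPM in exosomes Con, a log2 difference of 5.08 ± 0.16 (SE). By library totals these differences were 3.58 and 3.56. miR-6848-5p (4.15), miR-6894-5p (3.97), miR-6737-5p (3.93), miR-6886-5p (3.90), miR-6722-5p (3.60) and miR-6879-5p (3.60) followed on the TMM log2 scale. None overlapped between the groups, which the choice of named members required. Of these the hairpin of miR-6894 is in KDM5C, a histone demethylase gene. miR-6894-5p was abundant too, with 214, 202 and 229 CPM in cells Con and 1120, 1244 and 1173 CPM in exosomes Con.

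At the other extreme, miR-6759-5p had 168, 140 and 144 CPM in cells Con and 4.86, 1.13 and 3.09 CPM in exosomes Con, where 2 of the 3 libraries were at 3 counts or fewer. Its log2 difference was -4.04 ± 0.31 (SE; adjusted p = 3.92e-07). miR-6776-5p, from an intron of CLUH, a regulator of mRNAs for mitochondrial proteins, had 1537, 1657 and 1599 CPM in cells Con and 106, 68.7 and 75.2 CPM in exosomes Con, at -2.74 ± 0.14 (SE). The exosome libraries of both lay far below the cell libraries. miR-6857-5p (-2.88), miR-6721-5p (-2.81), miR-6866-5p (-2.75), miR-6715b-5p (-2.75), miR-6744-5p (-2.49) and miR-6716-5p (-2.43) were also lower. In Ang the 8 highest were miR-6749-5p (6.18), miR-6824-5p (5.10), miR-6886-5p (5.09), miR-6737-5p (4.88), miR-6848-5p (4.69), miR-6894-5p (4.52), miR-6756-5p (4.16) and miR-6879-5p (3.99). The 8 lowest in Ang were miR-6715b-5p (-3.67), miR-6759-5p (-3.53), miR-6857-5p (-2.97), miR-6866-5p (-2.81), miR-6811-5p (-2.53), miR-6813-5p (-2.48), miR-6785-5p (-2.39) and miR-6735-5p (-2.21).

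Members with more G stood higher in exosomes relative to cells. In Con the median log2 difference was -0.09 for the 35 tested members with up to 43.5% G, 0.51 for the 39 with 44% to 52.2% and 1.84 for the 36 with 52.4% or more. Of these classes 15, 20 and 26 members were higher in exosomes and 10, 11 and 6 lower. Spearman's rho between G share and log2 difference was 0.262 over 110 tested members with a sequence in Con and 0.286 over 105 in Ang. It is given as a description of members that share libraries and base composition. Members with GGGG had a median of 1.55 and those without it 0.25. For GGAG the order was the opposite, at 0.51 with the motif and 1.10 without it. Members whose 3p strand ends at a 3′ splice site, within 2 nucleotides, had a median of 0.97 and the other single-copy members 0.96.

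The relation with G was not a property of this block of names alone. Other names with a RefSeq sequence were split at the same limits of G share. Their medians in Con were -0.71 (1201 names), 0.91 (121 names) and 1.37 (104 names). Their lowest class had no lower limit, whereas that of the members began at 25% G. In the highest class 76.0% of the other names were higher in exosomes and 14.4% lower. The members' own values in that class were 26 higher and 6 lower of 36. The 3p partners of the members, which are poor in G, had a median of 0.77, close to that of the members, with 73 of 133 higher and 29 lower. A list of 24 names from mirtrons described earlier in the literature had 17 of 21 higher and 3 lower, with a median of 2.18.

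**Figure D2:**
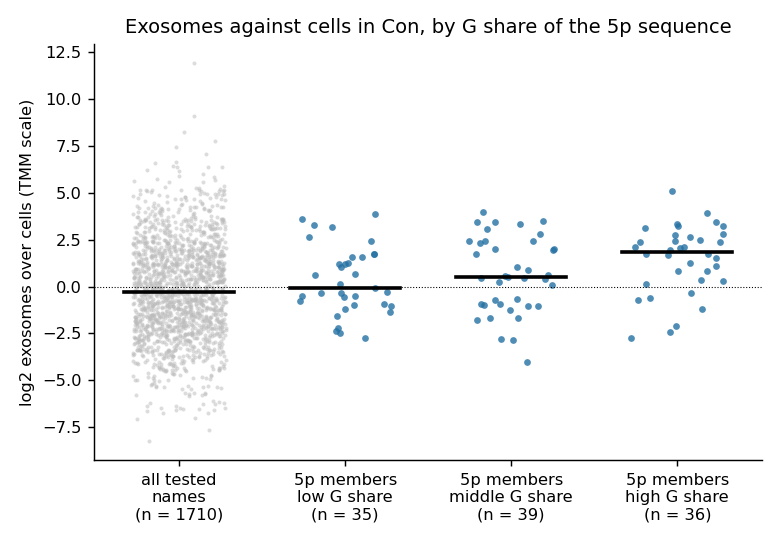
TMM log2 difference of exosomes over cells in Con for all tested names (grey) and for members in 3 classes of G share of the mature sequence (blue); each point is a miRNA and each bar the median of its column. The medians of the members rise from -0.09 to 0.51 and 1.84 across the classes, with wide overlap.

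Members with the same seed did not always distribute alike. miR-6737-5p had 53.0, 58.1 and 44.8 CPM in cells Con and 277, 289 and 276 CPM in exosomes Con. miR-6819-5p, with the same UGGGGUG seed, had 2719, 2858 and 3045 CPM in cells Con and 684, 666 and 650 CPM in exosomes Con, at -0.59 ± 0.074 on the TMM log2 scale against 3.93 ± 0.13 for miR-6737-5p (SE). miR-6812-5p, the remaining member with that seed, was at -0.34 and did not pass the test. The CGGGGAG pair miR-6777-5p and miR-6889-5p were both higher in exosomes, at 3.51 and 2.81.

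Both strands were listed for 171 of the hairpins, so the balance between the arms could be followed. Summed over these hairpins the 5p strand made up 62.9% ± 0.44 (SD, n = 3) of the counts in the Con cells and 62.8% ± 0.37 in the Ang cells. In exosomes it made up 39.1% ± 0.55 under Con and 40.8% ± 1.0 under Ang. The low share in exosomes rested in large part on miR-6785-3p. This strand had 193, 246 and 219 CPM in cells Con and 24024, 22659 and 23086 CPM in exosomes Con, a log2 difference of 8.24 ± 0.097 (SE), while miR-6785-5p went from 565, 634 and 575 CPM to 58.3, 40.5 and 44.3 CPM. Without this hairpin the 5p share was 62.8% in cells Con and 52.0% in exosomes Con, still without overlap (exact permutation p = 0.1). The median 5p share over hairpins was 47.7% in cells Con and 46.6% in exosomes Con (exact permutation p = 0.9), so the typical hairpin showed no shift in 1 direction.

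Single hairpins shifted in both directions. Of 122 hairpins with at least 10 counts over both arms in every library, the 5p share in exosomes Con did not overlap that in cells Con in 93, against 74.3% of all 498 hairpins with that depth. In Ang the share did not overlap in 94 of 122, against 72.7%. In Con it was higher in exosomes in 48 and lower in 45, against 173 and 197 of all 498. It moved by 50 percentage points or more in 17 of the 122, against 41 of the 498. miR-6756 went from 10.7% ± 1.6 to 79.7% ± 2.9 5p (SD, n = 3), and miR-6749 from 34.6% ± 9.7 to 95.8% ± 0.37. miR-6838, whose 5p strand has the miR-15 and miR-16 seed, went from 7.51% ± 1.9 to 63.1% ± 2.4. In the opposite direction miR-6785 went from 73.0% ± 1.4 to 0.204% ± 0.034, miR-6836 from 75.9% ± 1.3 to 18.1% ± 0.45 and miR-6813 from 81.2% ± 0.59 to 24.8% ± 3.4. These shifts compare strands inside a library and do not depend on its scaling.

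For miR-6836 both strands changed. The 5p strand had 1982, 2112 and 2045 CPM in cells Con and 596, 594 and 580 CPM in exosomes Con, and the 3p strand had 639, 620 and 691 CPM and then 2613, 2765 and 2626 CPM. For miR-6749 the 3p strand had 71.9, 60.1 and 70.7 CPM in cells Con and 19.4, 22.5 and 19.6 CPM in exosomes Con, so CPM were higher in exosomes for the 5p strand and lower for its partner, whose TMM log2 difference of -0.21 did not pass the test. Among 59 hairpins with both strands past the threshold in Con on the TMM scale, 33 had both strands higher in exosomes, 6 both lower and 20 in opposite directions. By library totals these counts were 9, 29 and 31 of 69, so the balance of both higher and both lower turned with the scaling. Opposite calls made up 22.7% of all 418 hairpins with both strands tested, and 20 of the 98 member hairpins, on the TMM scale. By library totals they made up 31 of the 98 member hairpins and 63 of 320 others.

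**Figure D3:**
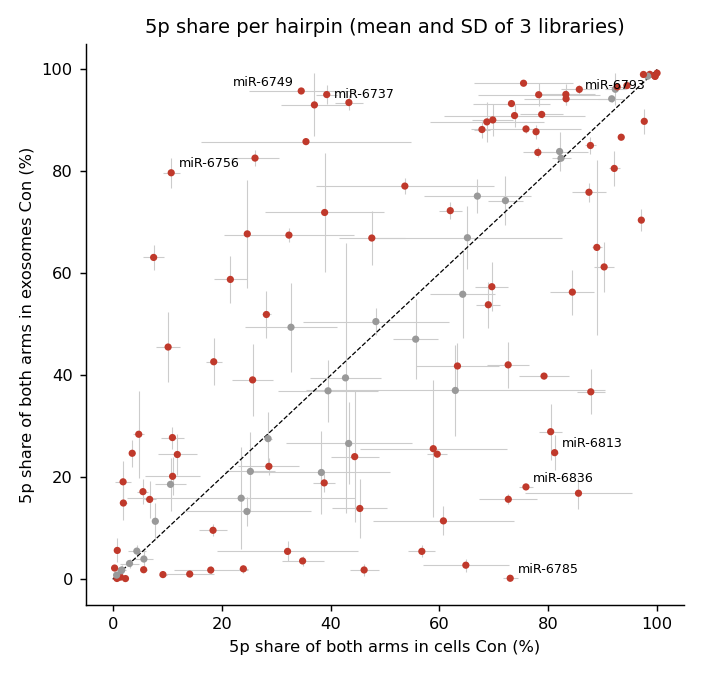
Share of the 5p strand in the counts of both arms in exosomes Con (vertical, %) against cells Con (horizontal, %) for 122 hairpins with at least 10 counts in every library; points are means and bars SDs of 3 libraries, and red marks hairpins whose libraries do not overlap between the groups. miR-6756 and miR-6749 lie far above the dashed line of equal share, and miR-6785, miR-6836 and miR-6813 far below it.

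Ang changed a subset of the members in exosomes. Of the 105 tested members 34 passed the threshold, 18 higher and 16 lower in Ang, against 34% of all 1199 tested names, of which 16.9% were higher and 17.1% lower. The members' median log2 difference was -0.10, and that of all names -0.05. The groups did not overlap in 56 of the 105 members and in 52.4% of all names. The members' share of calls was thus near that of all names. Among their 3p partners 13 of 115 were higher and 14 lower, and among the earlier mirtron names 5 of 20 and 3. By library totals, which lower the median of all names by 0.17, the members' calls were 15 higher and 28 lower, and by DESeq2 18 and 9 of the same tested members. Both arms of 9 member hairpins passed the threshold, 4 of them in opposite directions, out of 75 with both arms tested, against 4.08% opposite among all 245 such hairpins. The 5p share of a hairpin did not overlap between Ang and Con in 42 of 122 member hairpins in exosomes, against 31.3% of all hairpins, and it moved by 50 percentage points in none. In 24 of the 34 members the call held under every alternative tried, and in 27 with each library left out in turn, exosomes Con replicate 1 included.

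The largest rise was that of miR-6824-5p. It had 72.8, 79.9 and 74.1 CPM in exosomes Con and 155, 149 and 156 CPM in exosomes Ang. The groups were far apart, and the log2 difference was 1.18 ± 0.11 (SE; edgeR adjusted p = 3.58e-05). miR-6755-5p, from EED, a subunit gene of Polycomb repressive complex 2, had 18.4, 16.9 and 10.3 CPM in exosomes Con and 31.6, 27.2 and 30.3 CPM in exosomes Ang (log2 1.11 ± 0.25 SE, adjusted p = 0.00632). miR-6721-5p, from AGPAT1, a gene of phospholipid synthesis, had 26.2, 28.1 and 23.7 CPM and then 45.9, 40.7 and 49.9 CPM (0.97 ± 0.18 SE, adjusted p = 0.00255). Neither overlapped between the groups, which the choice of named members required. miR-6879-5p (log2 0.73), miR-6752-5p (0.64), miR-6848-5p (0.57), miR-6749-5p (0.56) and miR-6880-5p (0.54) rose as well. The call of miR-6880-5p was lost by DESeq2 (adjusted p = 0.150) and by library totals (adjusted p = 0.087), and without Con replicate 2 or Ang replicate 2.

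Smaller rises were seen in abundant members. miR-6893-5p had 8452, 8036 and 8068 CPM in exosomes Con and 9870, 9835 and 10219 CPM in exosomes Ang, at 0.45 ± 0.060 (SE; adjusted p = 0.000269). miR-6789-5p had 3735, 3744 and 3750 CPM and then 4783, 4541 and 4638 CPM, at 0.48 ± 0.056 (SE). All libraries of Ang were above those of Con for both. miR-6729-5p rose by 0.50 and miR-6727-5p by 0.37, while miR-6724-5p (-0.10) and miR-6793-5p (-0.04) did not pass the test. By library totals the rises were smaller, at 0.28 for miR-6893-5p and 0.21 for miR-6727-5p, and miR-6724-5p (-0.26, adjusted p = 0.0023) and miR-6793-5p (-0.20, adjusted p = 0.0044) passed as lower.

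The deepest fall was that of miR-6715b-5p, whose hairpin lies in no gene on its strand. It had 34.0, 33.8 and 20.6 CPM in exosomes Con and 10.04, 9.40 and 12.7 CPM in exosomes Ang (log2 -1.27 ± 0.30 SE, adjusted p = 0.00814). miR-6774-5p, from an intron of IRF8, a transcription factor gene of blood cell development, had 69.9, 79.9 and 64.9 CPM and then 33, 33.4 and 29.3 CPM (-1.002 ± 0.17 SE, adjusted p = 0.00111). In neither did the groups overlap, again by the rule for naming members. miR-6861-5p was the most abundant of the 8 named for a fall, with 1330, 1512 and 1397 CPM in exosomes Con and 776, 808 and 833 CPM in exosomes Ang (-0.64 ± 0.065 SE, adjusted p = 5.11e-05). miR-6756-5p, one of the members most enriched in exosomes, had 339, 429 and 425 CPM and then 192, 214 and 171 CPM (-0.88 ± 0.12 SE). miR-6748-5p (-0.97), miR-6858-5p (-0.92), miR-6796-5p (-0.80), from PLD3, a lysosomal nuclease gene, and miR-6869-5p (-0.70) also fell. By DESeq2 the calls of miR-6748-5p (adjusted p = 0.177) and miR-6869-5p (adjusted p = 0.0622) were lost, and that of miR-6748-5p also without Ang replicate 2 or 3.

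Members with GGAG were higher in exosomes Ang in 10 cases and lower in 5 of 44 tested, and those without it in 5 and 9 of 50, against 16.9% higher and 17.1% lower over all names. The medians were 0.02 and -0.16. Members with GGGG were higher in 10 and lower in 7 of 50, and those without it in 5 and 7 of 44. Over the classes of low, middle and high G share 2, 5 and 8 members were higher and 4, 4 and 6 lower. The tested members in these classes numbered 28, 30 and 36, with medians of -0.22, -0.03 and -0.09. Other names with a RefSeq sequence, at the same limits, were higher in 131, 19 and 16 and lower in 127, 19 and 28. They numbered 781, 105 and 102 tested. These counts are on the TMM scale, and the split of all member calls turned with library totals as given above. The seed pair split again, with miR-6737-5p at 0.51 ± 0.084 and miR-6819-5p at -0.61 ± 0.083 (SE), both past the threshold. miR-6737-5p had 277, 289 and 276 CPM in exosomes Con and 350, 359 and 362 CPM in exosomes Ang. miR-6819-5p had 684, 666 and 650 CPM and then 389, 369 and 409 CPM.

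**Figure D4:**
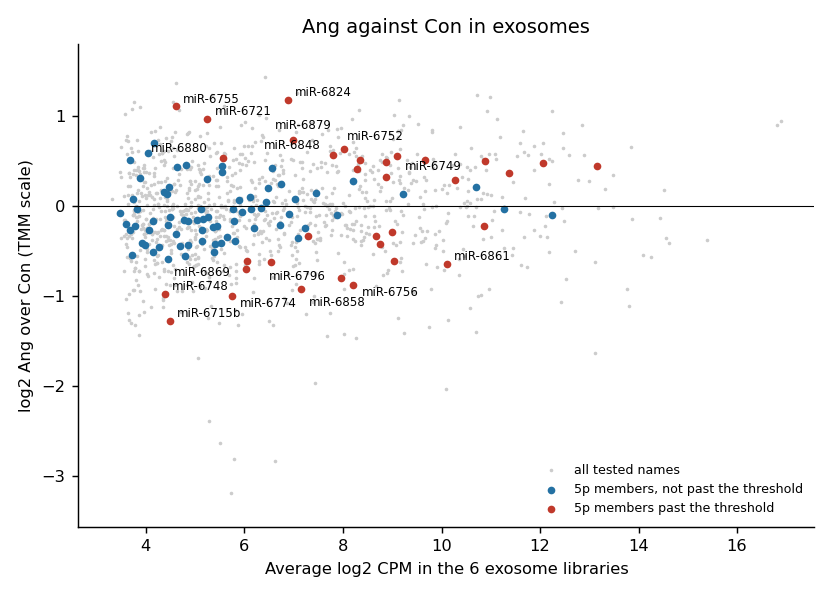
TMM log2 difference of exosomes Ang over Con (vertical) against average log2 CPM of the 6 libraries (horizontal) for all tested names (grey), members not past the threshold (blue) and the 34 members past it (red). The members lie within the spread of all names, with miR-6824-5p the highest and miR-6715b-5p the lowest.

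In cells Ang changed few members. Of 115 tested, 3 passed the threshold, 2 higher and 1 lower, against 6.56% of all 1630 tested names (2.76% higher and 3.8% lower), and 20 did not overlap between the groups, against 22.4% of names. miR-6836-5p, from SNX8, a gene of endosomal sorting, had 1982, 2112 and 2045 CPM in cells Con and 2885, 2464 and 2578 CPM in cells Ang (log2 0.36 ± 0.070 SE, edgeR adjusted p = 0.0053). miR-6858-5p had 429, 537 and 533 CPM and then 752, 614 and 606 CPM (0.39 ± 0.11 SE, adjusted p = 0.0462). miR-6786-5p had 605, 641 and 587 CPM and then 512, 433 and 380 CPM (-0.48 ± 0.11 SE, adjusted p = 0.0133). The groups did not overlap in any of the 3. The 5p share of a hairpin did not overlap in 15 of 122 member hairpins, against 15.1% of all hairpins. No call held in every alternative. Without Con replicate 1 or 2 a single call was left, and without Con replicate 3 there was none by edgeR's quasi-likelihood test. There were 3 without Ang replicate 2, the library with the highest sum over the blood, liver and endothelial list. Of the 115 members 16 had an unadjusted p below 0.05.

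The change with Ang in exosomes was then set against that in cells in the same fit (the interaction). Of 139 tested members 23 passed, 16 with a higher and 7 with a lower change in exosomes, against 15.1% of all 1835 tested names, 9.97% higher and 5.18% lower. This split follows the scaling, and was 8 and 18 by library totals, which lower the median of all names by 0.31, 20 and 6 by RLE size factors and 22 and 4 by DESeq2. Without exosomes Con replicate 2 the count was 14. miR-6786-5p changed in opposite directions, with 729, 709 and 664 CPM in exosomes Con and 841, 895 and 934 CPM in exosomes Ang against its fall in cells. The difference of the changes was 1.13 ± 0.15 (log2, SE; adjusted p = 4.52e-05). miR-6858-5p did the reverse, with 186, 186 and 203 CPM in exosomes Con and 94.7, 94.0 and 82.2 CPM in exosomes Ang, a difference of -1.17 ± 0.18 (adjusted p = 0.000183). The cell calls of miR-6786-5p and miR-6858-5p were lost in some alternatives. For miR-6858-5p these included RLE factors (edgeR adjusted p = 0.056) and DESeq2 (adjusted p = 0.070). miR-6836-5p, higher in cells Ang, was at -0.29 in exosomes, with a difference of -0.51 ± 0.12 (SE; adjusted p = 0.005). For miR-6824-5p the difference was 1.72 ± 0.38 (SE; adjusted p = 0.00379), and its own change in cells was -0.39 and did not pass the test.

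**Figure D5:**
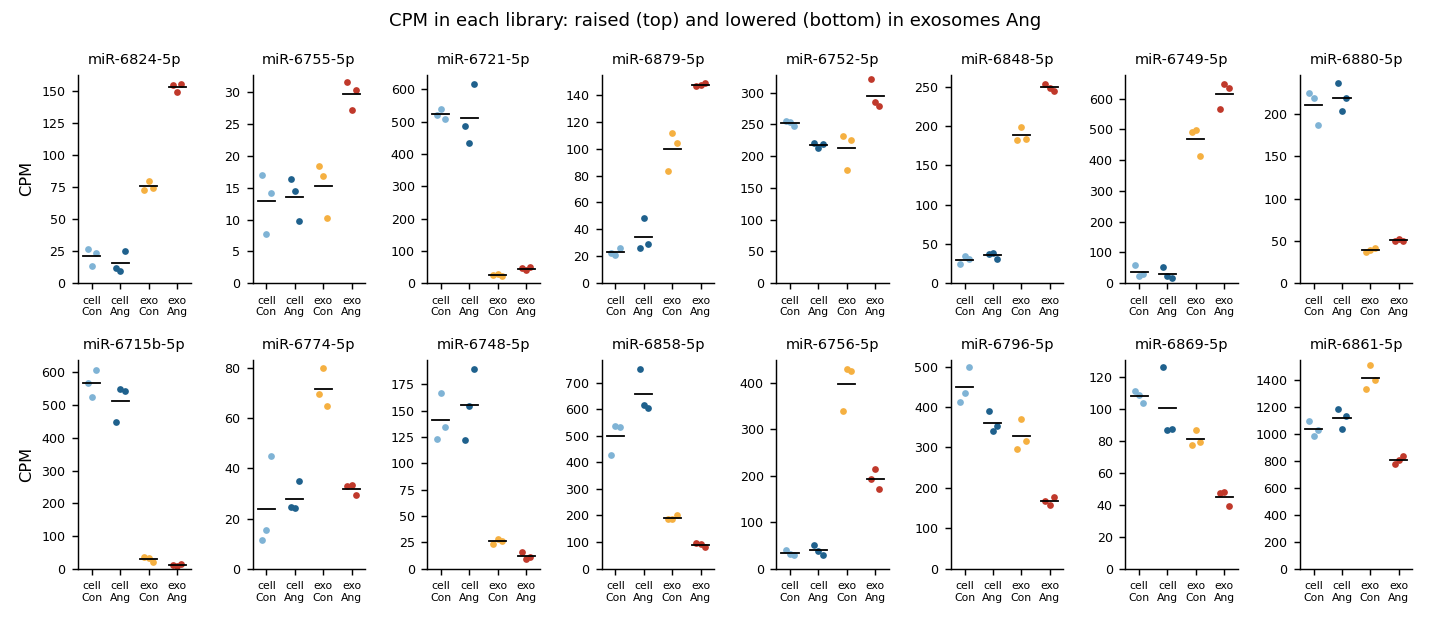
CPM of 16 members in each of the 12 libraries, for the 8 with the largest rise (top row) and the 8 with the largest fall (bottom row) in exosomes Ang; points are libraries, bars are means of 3, and each panel has its own axis from 0. The members were chosen past the threshold and without overlap of the exosome groups, so the separation in every panel follows from the choice. In cells only miR-6858-5p of the 16 passed the threshold.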

How the data were processed

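Small RNA was sequenced from AC16 cells and their exosomes with QIAseq miRNA libraries, 12 in all. The deposited files hold UMI counts per mature miRNA name, 1 file per library. Per the submitters' processing notes cutadapt and GRCh38 were used, while the labels name no counting program or annotation. The 76 names absent from the exosome files were set to 0 when the compartments were joined. CPM were computed from library totals. Differences were tested with edgeR 4.0.16 (R 4.3.3; filterByExpr, TMM, quasi-likelihood fit of the groups compared) over all names, with Benjamini-Hochberg adjustment and a threshold of 0.05, after a check on simulated data. Alternatives were RLE factors, library totals, DESeq2 1.42.0, no filter, a mean of at least 10 CPM, a replicate block, all 12 libraries and each library left out. Shares were compared by exact 2-sided permutation. The members and lists were chosen with earlier results of these data known. Members named are the 8 most abundant in cells Con and in exosomes Con, up to 8 in each direction per comparison (interaction: 5) past the threshold (mean of 10 CPM or more and, for 2 groups, no overlap), their 3p partners and their seed sharers. Others (miR-6785-3p, miR-6838, miR-6777-5p and miR-6889-5p) were chosen after their values were seen.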

Additional observations from a re-analysis of the deposited data

Results flagged for a closer look

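The change with Ang differed between exosomes and cells in 23 of 139 tested members by the interaction test of edgeR (adjusted p below 0.05), against 15.1% of all names, and the 5 largest differences in each direction, among members with a mean of at least 10 CPM, are given here. The change in exosomes minus that in cells, in log2, was 1.72 for miR-6824-5p, 1.16 for miR-6721-5p, 1.13 for miR-6786-5p, 1.01 for miR-6885-5p and 1.01 for miR-6752-5p. It was -1.64 for miR-6780a-5p, -1.17 for miR-6858-5p, -0.97 for miR-6756-5p, -0.97 for miR-6715b-5p and -0.60 for miR-6861-5p. miR-6885-5p had 380, 461 and 351 CPM in cells Con, 287, 307 and 333 CPM in cells Ang, 421, 412 and 392.3 CPM in exosomes Con and 532, 513 and 491 CPM in exosomes Ang. miR-6780a-5p was scarce, with 11.7, 10.1 and 19.6 CPM in exosomes Con and 5.74, 7.31 and 4.89 CPM in exosomes Ang, against 18.9, 21.3 and 23.6 CPM in cells Con and 38.7, 29.02 and 39.0 CPM in cells Ang. The calls of miR-6780a-5p, miR-6756-5p and miR-6715b-5p were lost when single libraries were left out.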

How the results depend on the processing

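The count of called members stayed within 1.5 times its value under all alternatives for exosomes Ang against Con (28 to 35 with a library left out) and for exosomes against cells in Con (92 to 106) and in Ang (92 to 102). For cells Ang against Con it was 1, 1 and 0 without Con replicates 1, 2 and 3 (range 0 to 3), and for the interaction 14 without exosomes Con replicate 2 (range 14 to 23). The cause was not tested. With a replicate block the counts were 33 (exosomes), 3 (cells), 96 and 96 (exosomes against cells in Con and Ang) and 18 (interaction), and the interaction of miR-6715b-5p was past the threshold no longer (adjusted p = 0.0507). In exosomes the deviations of libraries with the same number had correlations of 0.236, 0.235 and -0.165. Those of libraries with different numbers had -0.424 to 0.312. With 3 libraries per group these values cannot show whether the numbers pair the libraries, which the labels do not state. Among the named members the interaction calls lost when single libraries were left out were miR-6715b-5p (adjusted p up to 0.0915), miR-6756-5p (up to 0.208) and miR-6780a-5p (up to 0.0984). For the members' share of UMIs, the difference between Ang and Con in exosomes was 0.885 percentage points without miR-552-3p and miR-3972 in the total and -0.155 without the most abundant member, against 0.024. In cells it was 0.037 without Ang replicate 2 (range -0.153 to 0.037), against -0.0685. Exosomes against cells it was -1.91 (Con) and -0.956 (Ang) without those miRNAs and -1.78 and -1.90 without the most abundant member, against -2.72 and -2.62. The 5p share of the arms, taken as a median over hairpins, differed by -0.276 (exosomes), 1.67 (cells), -1.05 (exosomes against cells, Con) and -2.99 (Ang) percentage points. For the summed 5p share the difference in cells was 0.183 without Ang replicate 2 and 0.225 without Con replicate 1 (range -0.180 to 0.225), against -0.0300. Exosomes against cells, the summed share differed by -10.7 (Con) and -8.04 (Ang) without miR-6785. With at least 10 counts per hairpin it differed by -24.6 (Con). Members near 3 counts, such as miR-6759-5p in exosomes, are limited by depth.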
